A study of Mus musculus with 42 samples.

Results

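The 42 genes described here encode the extracellular matrix of the liver and the signals of the stellate cells that make much of it. They were taken by name from a list, out of 19758 gene names in the deposited tables, and the list was drawn up with earlier results of these data known. The list holds 5 fibrillar collagens, 9 basement membrane collagens and laminins, 4 chains of collagens VI and XIV, 8 glycoproteins and elastic fibre proteins, 5 proteoglycans and heparan sulfate editing proteins, 5 metalloproteinases and inhibitors, 2 crosslinking enzymes, and 4 signals, receptors and a stellate cell filament. All 42 were listed in 4 of the 6 tables. Timp1, an inhibitor of metalloproteinases, and Lox, a collagen crosslinking enzyme, were not listed in the KO lean vs WT lean and WT obese+RvE1 vs WT obese tables.

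Livers came from 42 male C57BL/6J mice, 7 in each of 6 groups, with 1 library per mouse. WT mice were littermates of mice with a CRISPR/Cas9 whole-body deletion of ChemR23, the RvE1 receptor encoded by Cmklr1. The WT lean and KO lean groups received a control diet with 10% of energy from fat and the obese groups a diet with 60% from fat, from 6 weeks of age and for 15 weeks. Mice of the WT obese+RvE1 and KO obese+RvE1 groups were given 300 ng RvE1 by intraperitoneal injection on 4 days, the other groups vehicle, and livers were taken on day 5 after a fast of at least 4 h. The deletion is not restricted to a cell type, so the KO groups do not separate ChemR23 of liver cells from that of other tissues.

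In a healthy liver, collagens and laminins form a thin scaffold in the space between the sinusoids and the hepatocytes, with denser fibrils around portal tracts and central veins. Hepatic stellate cells store vitamin A and, when activated by TGF-beta and PDGF, turn to making fibrillar collagen and the inhibitors that protect it from metalloproteinases. Sinusoidal endothelial cells supply part of the basement membrane proteins, and hepatocytes secrete plasma fibronectin and vitronectin.

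Between 16 M and 43.8 M reads per mouse fell on listed genes, with a median of 24.3 M. Cmklr1, which tests the labels, ran from 40.8 to 114 normalized counts in WT lean and from 9.72 to 22.6 in KO lean mice, and from 33.3 to 102 in WT obese and 5.08 to 23.2 in KO obese mice. No KO mouse reached the lowest WT mouse, although reads on the gene remained. The 16 stellate cell markers were all listed, and their summed normalized counts lay between 5007 and 8304 in the 14 mice of the WT diet table and between 5995 and 8597 in the KO diet table. In whole liver, fewer cells of a type and less RNA per cell cannot be told apart. No source used here says that a mouse was sampled more than once, and the p-values measure the spread between mice, taken as independent. Mice whose identifiers begin with the same number had an estimated correlation from 0.0643 to 0.373 over the comparisons. Normalized counts were set against each other only within a table, since each table was scaled on its own. A gene passed at a BH-adjusted p-value under 0.1 in limma, on log2(normalized count + 1), over the genes whose normalized counts averaged 5 or more. Log2 fold changes (log2 FC) on this scale understate the change of genes with few reads.

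Levels of the genes in WT lean liver ran over a wide range. Per kilobase of exon, Vtn (vitronectin, a cell adhesion protein of plasma) had a median of 21595 normalized counts in WT lean mice, Fn1 (fibronectin, which links cells to collagen) 3501 and Col18a1 (the basement membrane collagen that releases endostatin) 2208. The small proteoglycans Dcn (decorin), which binds collagen fibrils, and Bgn (biglycan), its relative, followed with 1915 and 877. The type I collagen chains stood far lower, with 21.2 for Col1a2 and 8.23 for Col1a1, and Vwa1, a von Willebrand factor A domain protein that binds perlecan in basement membranes, ranked 40 of 42 with 3.54. Timp1 had 1.8 and Lox 0.911, the 2 lowest medians. Single mice of the group ranged from 1.44 to 14.2 for Col1a1 and from 16.6 to 23.1 for Col1a2, so the measured values of these partner chains did not overlap. Dcn (1817 to 2564) overlapped Col18a1 (1999 to 2945), its neighbour in the order. Reads were aligned to the genome with Bowtie2, and whether genes with many short exons lost reads across exon junctions was not tested. The order of the genes is therefore approximate.

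Col4a1 and Col4a2, the chains of the major basement membrane collagen, are transcribed away from each other on chromosome 8 of GRCm38. Their annotated starts overlap over 22 bases, chr8:11312805-11312826, shown here because both genes begin in it. Capitals mark GGGCGG, letters bound by Sp1-type factors, on either strand.
Col4a2, plus strand: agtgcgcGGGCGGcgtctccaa
Col4a1, minus strand: ttggagacgCCGCCCgcgcact
RefSeq windows before the start (GRCm38.p6) were on hand for 26 of the 42 genes, and not for Vwa1. The 250 bases before the start of Mmp14 (plus strand, chr14:54431348-54431597) and Des (plus strand, chr1:75360042-75360291) are shown, since both genes passed in a diet comparison. The letters searched on both strands were CCAAT for the CCAAT box, then GGGCGG for the Sp1 box, and TATAAA for the TATA box, and capitals mark the matches.
Mmp14: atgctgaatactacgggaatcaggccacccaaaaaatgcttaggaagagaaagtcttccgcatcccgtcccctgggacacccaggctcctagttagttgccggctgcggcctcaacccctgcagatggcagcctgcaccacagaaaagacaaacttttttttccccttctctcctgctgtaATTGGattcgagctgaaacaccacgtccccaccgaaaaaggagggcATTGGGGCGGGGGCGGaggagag
Des: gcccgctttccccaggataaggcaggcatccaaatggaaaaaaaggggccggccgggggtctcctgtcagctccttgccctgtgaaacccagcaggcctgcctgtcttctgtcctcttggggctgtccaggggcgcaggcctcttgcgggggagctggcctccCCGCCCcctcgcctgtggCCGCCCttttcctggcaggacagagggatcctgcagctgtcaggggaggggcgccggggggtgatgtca
The Mmp14 window held 2 matches to CCAAT, both read on the opposite strand as ATTGG, and 2 to GGGCGG, the first of which shares a base with an ATTGG. The Des window held 2 matches to GGGCGG, both on the opposite strand. GC content was 55.2% for Mmp14 and 67.2% for Des. Over the 26 windows 15 held an Sp1 box, 9 a CCAAT box and 3 a TATA box, and over all 32851 windows provided the shares were 32.7%, 33.8% and 12.4%. A match is a description of the letters, not of a bound site.

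The first comparison asked what the high fat diet did to these genes in WT liver. Of 40 genes tested, Vwa1 rose and Mmp14, the membrane-bound metalloproteinase that cleaves collagen and activates Mmp2, fell. Both changed more than 1.5-fold. Over all genes 6.27% passed, 3.65% higher and 2.61% lower, and 3.8% passed with a fold change above 1.5, so the count of 2 among 40 stood near the background. Timp1 (0 to 9.02 normalized counts over both groups) and Lox (0 to 10.6) fell below the filter on low counts and were not tested.

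Vwa1, on chromosome 4 from 155768149 to 155774698, had 10.5, 12.8 and 16 normalized counts in the lowest, median and highest WT lean mouse, and 23, 38 and 60 in WT obese mice. Every obese mouse lay above every lean mouse. How large a share of all genes had groups as separate as these is not given here. The log2 FC was 1.47 (SE 0.22, adjusted p = 0.00189) and lay between 1.29 and 1.57 over the other settings, all of which passed. Mmp14, on chromosome 14 from 54431612 to 54445364, had 687, 995 and 1361 normalized counts in WT lean and 359, 527 and 815 in WT obese mice. The groups overlapped between 687 and 815, and the log2 FC was -0.85 (SE 0.18, adjusted p = 0.0177).

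None of the collagens passed in WT mice. Col1a1 ran from 8.52 to 84.2 (median 48.8) in lean and from 12.2 to 93.4 (median 38) in obese mice, a log2 FC of -0.06 (SE 0.48, adjusted p = 0.967). For Col1a2 the log2 FC was -0.16 (SE 0.20, adjusted p = 0.724), and for Col3a1, the chain of reticular fibres, -0.02 (SE 0.24, adjusted p = 0.98). Both directions were obtained for Col1a1 and Col3a1 over the other settings. Col4a1 had 402, 478 and 611 normalized counts in lean and 216, 385 and 566 in obese mice, a log2 FC of -0.41 (SE 0.19, adjusted p = 0.255).

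The stellate cell genes of the list did not pass either. Pdgfrb, the PDGF receptor of stellate cells, ran from 141 to 231 (median 163) in lean and from 113 to 186 (median 122) in obese mice, with a log2 FC of -0.30 (SE 0.15, adjusted p = 0.29). Des, which encodes desmin, the intermediate filament of quiescent stellate cells, had a log2 FC of -0.14 (SE 0.18, adjusted p = 0.73). Spp1, the matrix signal osteopontin made largely by bile duct cells and macrophages, had 0.13 (SE 0.17, adjusted p = 0.738). Over the 40 genes 37 estimates were below 0, while 50.5% of all genes were above 0. The median was -0.24 against 0.00 over all genes. With reads scaled to equal totals 33 were below 0, and with a correction for length and GC content 32. The genes varied together between mice (median pairwise r 0.33), so these estimates are not separate observations. Of the 40, 8 had an unadjusted p under 0.05, where 18.2% of all genes did. Of 16 stellate cell markers Hgf and Bmp5 passed, both lower, and the summed markers overlapped (5382 to 8304 in lean, 5007 to 6850 in obese mice). Summed Kupffer cell markers ran from 4521 to 9331 and from 5449 to 8374, with 0 of 11 passing. Of 12 sinusoidal endothelial markers all estimates were below 0, with a median of -0.29, and Dnase1l3 passed as lower, with sums from 4493 to 7516 in lean and from 3711 to 6003 in obese mice. Of 6 mesothelial markers Gpm6a passed as lower, with a median of -0.74 and sums from 174 to 406 and from 104 to 444. The part of these cells in the gene levels was not tested.

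**Figure D1:**
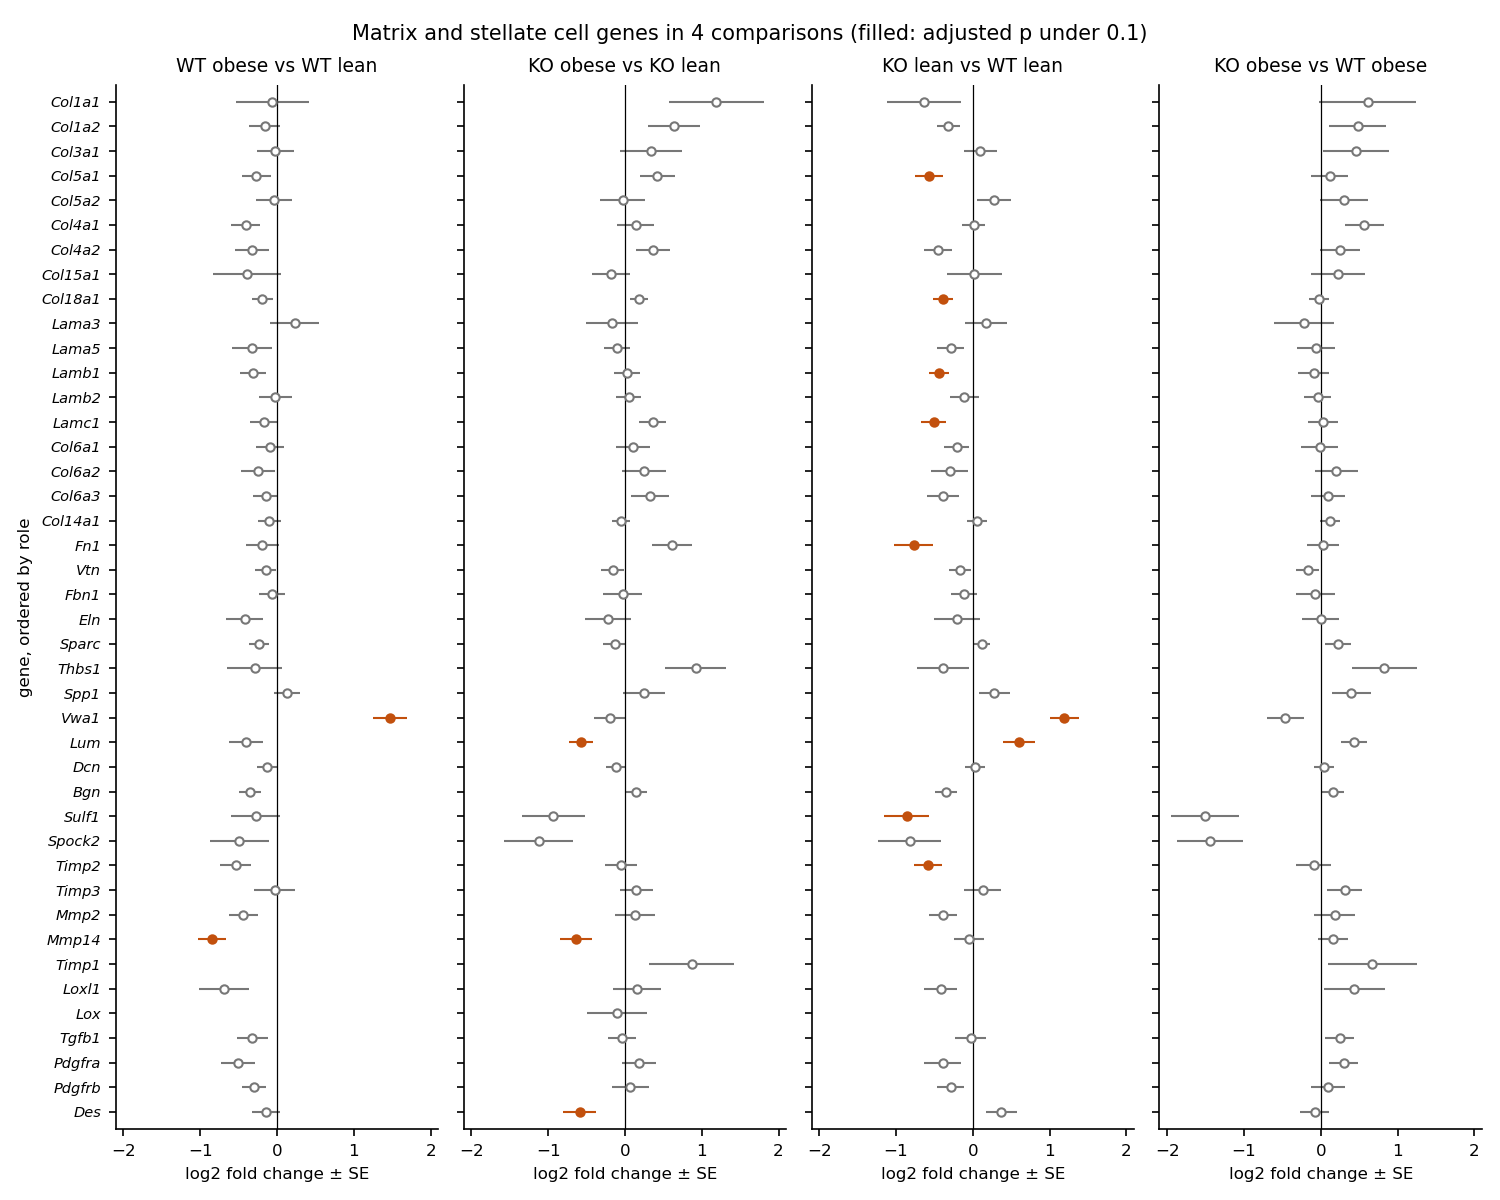
Log2 fold change (x axis) with its standard error for each matrix and stellate cell gene (y axis, ordered by role) in 4 comparisons of 7 with 7 mice, with filled orange points for genes at an adjusted p under 0.1. Vwa1 stands at 1.47 and 1.19 in the WT diet and lean genotype panels and Mmp14 at -0.85 and -0.64 in the WT and KO diet panels, while no point is filled for KO against WT obese mice.

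In KO mice the same diet change was followed by lower levels of 3 genes of 42 tested. Lum (lumican, a proteoglycan that spaces collagen fibrils), Mmp14 and Des fell, and none rose. Over all genes 24.1% passed in this comparison, 12% higher and 12.1% lower, and 10.4% passed with a fold change above 1.5, as Mmp14 and Des did. A count of 3 among 42, with none higher, was a smaller share than among all genes, and that difference was not tested.

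Lum, on chromosome 10 from 97565128 to 97572703, had 380, 551 and 699 normalized counts in KO lean and 283, 342 and 434 in KO obese mice, with a log2 FC of -0.57 (SE 0.16, adjusted p = 0.0245). The ranges overlapped between 380 and 434. Mmp14 had 688, 1286 and 1510 in lean and 476, 751 and 968 in obese mice, a log2 FC of -0.64 (SE 0.21, adjusted p = 0.047). Its 3 lowest lean mice, at 688, 739 and 880, were those whose identifiers begin with the same number. With a random block for that number the call was lost (adjusted p = 0.103), as it was with equal totals (0.189) and without KO lean replicate 6 or KO obese replicate 7 (0.103 each). Des, on chromosome 1 from 75360329 to 75368579, had 108, 133 and 314 in lean and 67.3, 103 and 127 in obese mice, with a log2 FC of -0.59 (SE 0.21, adjusted p = 0.0704). Its call was lost without any 1 of 5 mice, with -0.41 (adjusted p = 0.107) without KO lean replicate 7, the mouse at 314, and also with equal totals, the length and GC correction and the block. Lum kept its call in all settings but equal totals (adjusted p = 0.176).

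Type I collagen spread widely among KO obese mice. Col1a1 had 10.8, 30.5 and 71.5 normalized counts in the lowest, median and highest KO lean mouse and 12.9, 70.6 and 359 in KO obese mice. Replicates 1, 2 and 7 of the obese group, at 359, 202 and 102, lay above all lean mice, and the other 4 lay within the lean range. Identifiers of replicates 1 and 2 begin with the same number, as does that of replicate 3, which lay within the lean range. The log2 FC was 1.19 (SE 0.62, adjusted p = 0.195). It passed with edgeR (1.76, adjusted p = 0.0636), with DESeq2 (1.72, adjusted p = 0.0503) and with library quality weights (1.53, adjusted p = 0.0542).

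Its partner chain and type III collagen were highest in the same mice. Col1a2 reached 436, 297 and 192 and Col3a1 959, 695 and 407 in replicates 1, 2 and 7, where the highest lean mice had 130 and 416. Their log2 FCs were 0.64 (SE 0.34, adjusted p = 0.212) and 0.34 (SE 0.40, adjusted p = 0.596). Timp1 stood at 35.4 in replicate 1 and at 10.3 and 10 in replicates 2 and 7, while the KO lean mice ran from 1.19 to 4.89. Its log2 FC was 0.87 (SE 0.55, adjusted p = 0.29), and with edgeR 1.84 (adjusted p = 0.0729). Thbs1, which encodes thrombospondin 1, an activator of latent TGF-beta, was highest in replicate 1 at 199 as well, but second in replicate 4 at 164, a mouse with 37 for Col1a1.

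**Figure D2:**
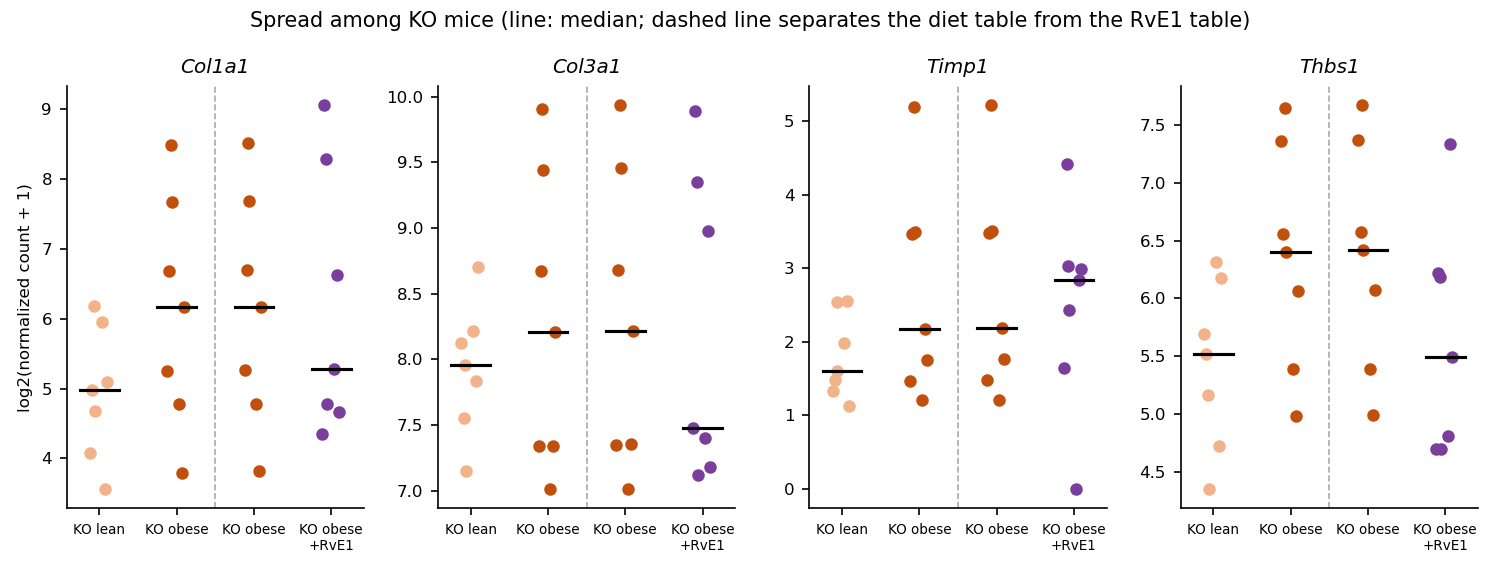
Each point is 1 mouse, on log2(normalized count + 1), for Col1a1, Col3a1, Timp1 and Thbs1 in KO mice, with group medians as lines and a dashed line between the separately scaled diet and RvE1 tables. In Col1a1 the KO lean mice run from 10.8 to 71.5 normalized counts and the KO obese mice from 12.9 to 359, and the KO obese+RvE1 mice from 19.3 to 531.

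No basement membrane collagen or laminin and no receptor gene of the list passed in KO mice. Col4a1 had a log2 FC of 0.14 (SE 0.24, adjusted p = 0.714) and turned below 0 without KO obese replicate 1, whose 1409 normalized counts compare with a group median of 553. For Pdgfrb it was 0.07 (SE 0.24, adjusted p = 0.87), with both directions over the other settings. The same replicate had 344 normalized counts of Pdgfrb and the group median was 129. Spp1 had 0.25 (SE 0.27, adjusted p = 0.56) and Vwa1 -0.19 (SE 0.21, adjusted p = 0.585). The heparan sulfate genes Sulf1, a sulfatase, and Spock2, a testican, had -0.93 (SE 0.41, adjusted p = 0.131) and -1.12 (SE 0.45, adjusted p = 0.101). Both passed as lower with the length and GC correction and with library quality weights, and Spock2 also with edgeR and DESeq2. Of all 14213 genes 3135 passed with that correction and 5737 with the weights.

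The 42 estimates had a median of 0.06 against -0.00 over all genes, with 23 above 0 and 19 below. Of all genes 49.8% were above 0. With edgeR and with DESeq2 8 members passed, Col1a1, Col1a2, Timp1 and Thbs1 higher and Spock2, Des, Lum and Mmp14 lower. Over all 14213 genes edgeR called 3574 and DESeq2 3962. With reads scaled to equal totals, which moved the median of all genes to 0.14, Fn1 and Thbs1 passed as higher and none as lower. Of all genes 3183 passed with equal totals. Without KO lean replicate 5 the count of members was 8, without KO obese replicate 6 it was 6, and without KO lean replicate 6 it was 1. Calls over all genes in the fits without 1 mouse are not given here, so these counts have no background beside them.

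Markers of other cells moved in this comparison. Of 11 Kupffer cell markers tested 8 were lower and 0 higher, and their sum ran from 11672 to 24142 in KO lean and from 6632 to 9228 in KO obese mice, without overlap. Of 12 sinusoidal endothelial markers 5 were lower. Among 16 stellate cell markers Pth1r, Hand2 and Angptl6 were lower besides Des, and their sum overlapped (6370 to 8597 in lean, 5995 to 7426 in obese mice). Of 9 myofibroblast and portal fibroblast markers tested 1 was higher and 2 lower, with a median of -0.03. Sums over the 12 listed ran from 413 to 624 in lean and from 328 to 711 in obese mice. Obese replicate 1, the mouse with 359 for Col1a1, had the highest sum of its group in both lists. Of 6 markers of mesothelial cells, which coat the liver surface, Upk3b and Upk1b were lower, and their sum ran from 123 to 521 in lean and from 42.8 to 251 in obese mice. The part of these cells in the fall of Lum, Mmp14 and Des, or in the collagen levels, was not tested.

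Between KO lean and WT lean mice the question was what loss of ChemR23 did without obesity. Of 40 tested, 9 passed, with Vwa1 and Lum higher in KO lean mice and Col5a1, Col18a1, Lamb1, Lamc1, Fn1, Timp2 and Sulf1 lower. Among all genes 16.3% passed, 8% higher and 8.3% lower. Vwa1, Lum, Fn1 and Sulf1 also changed more than 1.5-fold, as 6.65% of all genes did.

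Vwa1 had 10.9, 13.4 and 16.5 normalized counts in the lowest, median and highest WT lean mouse and 23, 30.1 and 43.8 in KO lean mice. All KO mice lay above all WT mice. The share of all genes with separate groups is not given here. The log2 FC was 1.19 (SE 0.19, adjusted p = 0.0205). Lum had 231, 297 and 548 in WT and 344, 500 and 635 in KO mice, with a log2 FC of 0.60 (SE 0.21, adjusted p = 0.0788).

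Of the 7 genes that fell, 3 belonged to the basement membrane. Lamc1, which encodes the gamma chain shared by most laminins, had 267, 286 and 431 normalized counts in WT lean and 147, 205 and 319 in KO lean mice, a log2 FC of -0.51 (SE 0.16, adjusted p = 0.0592). Lamb1, a laminin beta chain, went from a median of 167 to 121 with overlapping ranges, and its log2 FC was -0.44 (SE 0.13, adjusted p = 0.0598). Col18a1 had 14105, 15629 and 20751 in WT and 10321, 12085 and 15783 in KO mice, with a log2 FC of -0.39 (SE 0.13, adjusted p = 0.0682).

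Fibronectin and a fibril-starting collagen were lower as well. Fn1 had 23103, 30873 and 35781 normalized counts in WT and 7692, 18626 and 34557 in KO mice, a log2 FC of -0.77 (SE 0.25, adjusted p = 0.0691). The highest KO mouse lay within the WT range. Col5a1, a chain of the collagen that nucleates type I fibrils, had 109, 135 and 202 in WT and 52, 92.8 and 118 in KO mice, with a log2 FC of -0.57 (SE 0.18, adjusted p = 0.0602). Timp2, an inhibitor that also takes part in activating Mmp2, had 237, 331 and 431 in WT and 154, 225 and 318 in KO mice, with -0.58 (SE 0.18, adjusted p = 0.0571). Sulf1 had 25.5, 43 and 72.6 in WT and 13.5, 23.2 and 55.3 in KO mice, with -0.86 (SE 0.29, adjusted p = 0.0721).

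The chains of collagens I, III and IV named below and the receptors did not pass between lean genotypes. The log2 FC was -0.64 (SE 0.48, adjusted p = 0.407) for Col1a1, -0.32 (SE 0.15, adjusted p = 0.169) for Col1a2 and 0.10 (SE 0.21, adjusted p = 0.78) for Col3a1. Col4a1 had 0.01 (SE 0.15, adjusted p = 0.977), and Col3a1 and Col4a1 were obtained in both directions over the other settings. Pdgfrb had -0.29 (SE 0.18, adjusted p = 0.316), Des 0.37 (SE 0.20, adjusted p = 0.258) and Spp1 0.28 (SE 0.20, adjusted p = 0.398). The median over the 40 was -0.25 against -0.00 over all genes.

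These calls were close to the threshold. With a random block for the leading number of the mouse identifiers none of the 40 passed, and 3 genes did over all 13031. With the correction for length and GC content Vwa1, Timp2 and Bgn passed, where 1593 of all 13031 genes did. Leaving out WT lean replicate 2 or 5, or KO lean replicate 2, left 1 member, KO lean replicate 4 or 6 left 2, and KO lean replicate 3 left 4. For the fits without 1 mouse, calls over all genes are not given here. Of 11 Kupffer cell markers 9 were higher in KO lean mice, and their sum ran from 10591 to 21891, against 4712 to 9706 in WT lean mice. Of 12 sinusoidal endothelial markers Fcgr2b and Bmp2 were higher (median 0.17), with sums from 6030 to 8681 in KO and from 4673 to 7810 in WT mice, and of 7 cholangiocyte markers Krt19 was lower (median -0.15). Of 6 mesothelial markers none passed (median -0.45). Stellate cell markers were lower in 3 of 16 (Ngfr, Bmp5 and Reln), with sums from 5783 to 7832 in KO and from 5597 to 8628 in WT mice. The part of these cells in the matrix genes was not tested.

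**Figure D3:**
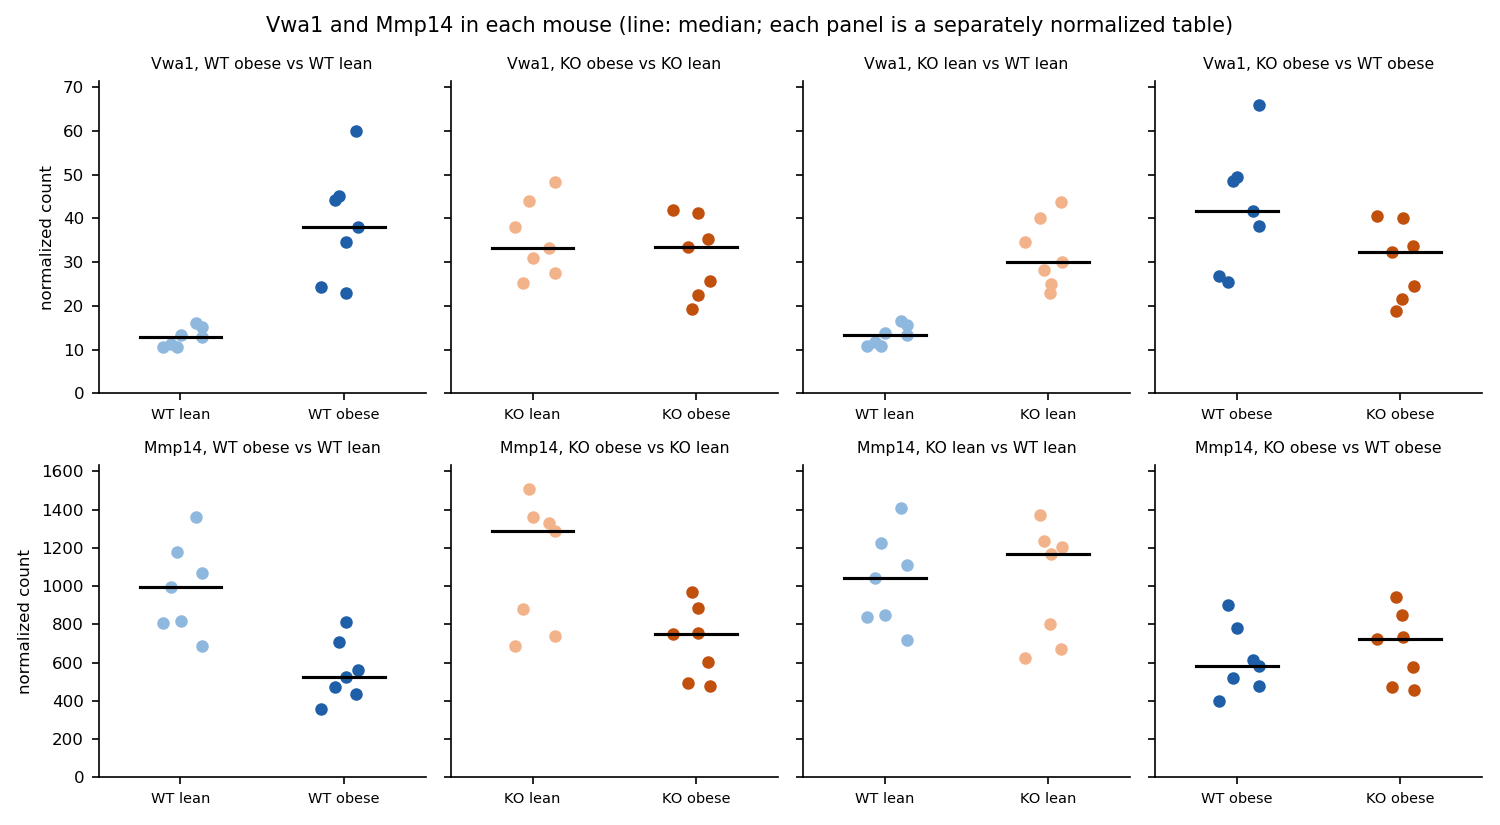
Normalized counts of Vwa1 (top) and Mmp14 (bottom) in each mouse, in 4 separately scaled tables with the group median as a line. For Vwa1 the WT lean mice, 10.5 to 16 in the first panel, lie below all mice of the WT obese and KO lean groups, and Mmp14 is lower in obese than in lean mice in the first 2 panels. The share of all genes with such separate groups is not given.

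Among obese mice no genotype difference passed in the 41 matrix genes tested. In limma 0.0141% of all genes passed, 2 genes of 14162, and 2 with edgeR and 3 with DESeq2. Of the 41 genes 4 had an unadjusted p under 0.05, where 2.25% of all genes did. Those 4, named here for that p, were Sulf1, Spock2, Lum and Col4a1. Lox was below the filter.

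Sulf1 had 23.8, 31.7 and 107 normalized counts in WT obese and 4.59, 14.4 and 32.1 in KO obese mice, a log2 FC of -1.51 (SE 0.44, adjusted p = 1). Spock2 had 13.4, 38.3 and 106 in WT obese and 4.59, 9.64 and 28.9 in KO obese mice, with -1.44 (SE 0.43, adjusted p = 1). Both groups overlapped for each gene. Lum had 0.43 (SE 0.17) and Col4a1 0.57 (SE 0.26), with adjusted p = 1 in limma for both.

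Vwa1 had 25.5, 41.7 and 66 in WT obese and 18.8, 32.3 and 40.5 in KO obese mice, with a log2 FC of -0.46 (SE 0.24, adjusted p = 1). The log2 FC was 0.61 (SE 0.63) for Col1a1, 0.48 (SE 0.37) for Col1a2, 0.46 (SE 0.43) for Col3a1, 0.67 (SE 0.58) for Timp1 and 0.40 (SE 0.25) for Spp1. For Pdgfrb it was 0.09 (SE 0.22) and for Des -0.08 (SE 0.19), each of which took both directions over the other settings. The highest KO obese mouse had 350 normalized counts of Col1a1, where the group median was 68. Of 6 mesothelial markers none passed (median -0.91), with sums from 41.3 to 242 in KO obese and from 114 to 491 in WT obese mice. WT obese replicate 5 had the highest of these sums, and KO obese replicate 7 the highest of its group. Both mice were also the highest of their groups for Sulf1 and Spock2. Medians were -0.02 over stellate cell, 0.20 over sinusoidal endothelial and 0.10 over Kupffer cell markers, and none of them passed. The part of these cells in the matrix genes was not tested.

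Whether the diet effect depended on genotype was tested as an interaction over 28 mice. Vwa1 passed among 40 matrix genes, and in limma it was the only gene of 13924, a background of 0.00718%. EdgeR also called 1 gene and DESeq2 926. The diet effect on Vwa1 was smaller in KO mice (difference in log2 FC -1.65, SE 0.30, adjusted p = 0.0803), which sets a rise of 1.47 in WT beside -0.19 in KO mice. The call was lost with a pseudocount of 4 (adjusted p = 0.101), equal totals (0.116), the length and GC correction (0.154) and the identifier block (0.603), and DESeq2 gave it no adjusted p. It was also lost without any 1 of 16 mice of the 28.

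Bgn (0.51, SE 0.20, adjusted p = 0.179), Fn1 (0.79, SE 0.34, adjusted p = 0.214) and Col5a1 (0.68, SE 0.31, adjusted p = 0.236) had the next interactions by p. For Col1a1 the difference was 1.25 (SE 0.84, adjusted p = 0.444). Over the 40 genes 33 differences were above 0, while 49% of all genes were, with a median of 0.25 against -0.01 over all genes. With the length and GC correction 29 were above 0, and with equal totals 34. Since the genes varied together between mice, these differences are not separate observations. The diet comparisons and the lean genotype comparison share the lean mice, so these values are not independent of each other.

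RvE1 was given to obese mice of both genotypes. In limma 0 of 40 matrix genes passed in WT obese+RvE1 against WT obese mice and 0 of 42 in KO obese+RvE1 against KO obese mice, and the background was 0% in each. At an unadjusted p under 0.05 there were 4 and 1 of the matrix genes, and 6.08% and 8.3% of all genes. EdgeR called 1 gene of all in WT and 0 in KO mice, DESeq2 25 and 17, and neither called a matrix gene.

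In WT mice the 4 were Loxl1, an elastin and collagen crosslinking enzyme, Lama3, a laminin alpha chain, Eln (elastin) and Timp2, named here for their p. Loxl1 had 13.2, 32.3 and 78.3 normalized counts in the lowest, median and highest WT obese mouse and 37.6, 63.2 and 75 in WT obese+RvE1 mice, a log2 FC of 0.92 (SE 0.32, adjusted p = 0.772). Lama3 had 52.1, 173 and 208 in WT obese and 64.5, 87.9 and 125 in treated mice, with -0.77 (SE 0.26, adjusted p = 0.772). Without WT obese replicate 7 it was -1.03 (adjusted p = 0.025), the one alternative in which Lama3 passed. Calls over all genes without that mouse are not given here. Ranges overlapped for both Loxl1 and Lama3. The log2 FC was 0.54 (SE 0.21) for Eln and 0.42 (SE 0.19) for Timp2. Over the 40 genes the median was 0.12 against 0.00 over all genes. Of the 40, 31 were above 0, while 51.2% of all genes were.

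In KO mice the 1 gene was Mmp14, with 480, 758 and 986 normalized counts in KO obese and 584, 969 and 1245 in KO obese+RvE1 mice, a log2 FC of 0.42 (SE 0.19, adjusted p = 0.579). Lama3 and Eln had -0.80 (SE 0.41) and 0.60 (SE 0.31), with adjusted p = 0.604 in limma for both. Col1a1 had 13.1, 71.2 and 366 in KO obese and 19.3, 37.9 and 531 in treated mice, a log2 FC of 0.01 (SE 0.82, adjusted p = 0.998). Replicates 7 and 1 of the treated group, at 531 and 312, carried the upper end, and replicate 7 was also highest for Timp1 at 20.3. These 2 mice had the lowest Vwa1 of their group, 22.8 and 25.4 where the median was 49.4. The highest Col1a1 mouse among KO obese mice, replicate 1, had the lowest Vwa1 there too, at 19.7, but the second, replicate 2, had 41.8.

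The interaction of RvE1 and genotype gave 0 of 40 matrix genes in limma, with a background of 0% over 13059 genes. At an unadjusted p under 0.05 there was 1, Thbs1, with a difference of -1.21 (SE 0.59, adjusted p = 1). EdgeR and DESeq2 called 0 genes. Both RvE1 comparisons use the vehicle-treated obese mice that also stand in the diet and genotype comparisons.

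A wider list held 139 other matrix genes, whose counts stand beside the shares of all genes of 6.27%, 24.1% and 16.3% in the comparisons that follow. Between WT obese and WT lean mice 1 of 120 tested was higher and 3 lower, led by Mmp19, a metalloproteinase (0.49, SE 0.14, adjusted p = 0.0697), Emilin1, an elastic fibre glycoprotein (-0.49, SE 0.11, adjusted p = 0.0223), and Sdc1, the proteoglycan syndecan 1 of the hepatocyte surface (-0.45, SE 0.14, adjusted p = 0.0797). Between KO obese and KO lean mice 5 of 123 were higher and 11 lower, with Mmp19 (0.61, SE 0.12, adjusted p = 0.00619) and the collagen prolyl hydroxylase subunit P4ha2 (0.66, SE 0.16, adjusted p = 0.0148) above and Sdc1 (-0.97, SE 0.14, adjusted p = 0.00202) and the small proteoglycan Ogn (-0.84, SE 0.20, adjusted p = 0.0142) below. Between KO lean and WT lean mice 4 of 113 were higher and 8 lower. Cd44, the hyaluronan receptor (0.73, SE 0.16, adjusted p = 0.0347), and Sdc1 (0.45, SE 0.14, adjusted p = 0.0562) led the higher genes, and Ltbp4, which binds latent TGF-beta (-0.62, SE 0.19, adjusted p = 0.0595), and Prelp (-0.49, SE 0.16, adjusted p = 0.0684) the lower. In the other 5 tests none passed. The medians were -0.21, -0.04 and -0.14 in these 3 comparisons.

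How far the matrix genes varied together from mouse to mouse differed by role. Deviations from group means were formed for the 42 mice, on log2(normalized count + 1), for 13066 genes that include 40 of the list. The median pairwise r was 0.33 over the 40 genes, 0.75 over the 5 fibrillar collagens, 0.72 over collagens VI and XIV, 0.39 over the basement membrane genes, 0.28 over the signals and receptors, 0.23 over the metalloproteinases and inhibitors, 0.13 over the glycoproteins and 0.10 over the proteoglycans and heparan sulfate genes, beside -0.00 over all genes. Of the 780 pairs 169 had r below 0, such as Vwa1 and Loxl1 at -0.61 and Lama3 and Col5a1 at -0.62, pairs picked after their values were seen. Col1a1 and Col1a2 ranked 1, at r = 0.91. Sulf1 and Spock2, of the list with the median of 0.10, had r = 0.83, a pair also picked after values were seen. All deviations of a mouse share its library, its scaling and its mix of cells.

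Pairs whose genes lie side by side in the genome, or whose chains join in a trimer, were taken one by one after values had been seen. For Col4a1 and Col4a2, whose starts overlap as shown, r was 0.88 (Spearman's rho 0.83, n = 42 mice), and 0.84 without the 2 mice farthest from the median of Col4a1. Within single groups r ran from 0.47 to 0.97. Col1a1 and Col1a2, on chromosomes 11 and 6, had r = 0.91 (rho 0.91), 0.89 without 2 mice and 0.65 to 0.99 within groups. Col6a1 and Col6a2, 85162 bases apart on chromosome 10, had 0.87 (rho 0.85), then 0.84, and 0.39 to 0.95. Col3a1 and Col5a2, 24615 bases apart on chromosome 1, had 0.82 (rho 0.76), then 0.78, and 0.07 to 0.98. Lum and Dcn, 46985 bases apart on chromosome 10, had 0.56 (rho 0.53), then 0.46, and -0.13 to 0.92. In 2-sided permutation tests with 100000 draws p was 1e-05 for r and for rho in the first 4 pairs, the smallest such a test can give, and 0.0001 and 0.0004 for Lum and Dcn. BH adjustment over the 5 pairs left 1e-05 and 0.0001 for r. The draws shuffled all 42 mice without regard to group and set r against 0. The 40 genes already had a median pairwise r of 0.33, so a small p does not set these pairs apart from other pairs.

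**Figure D4:**
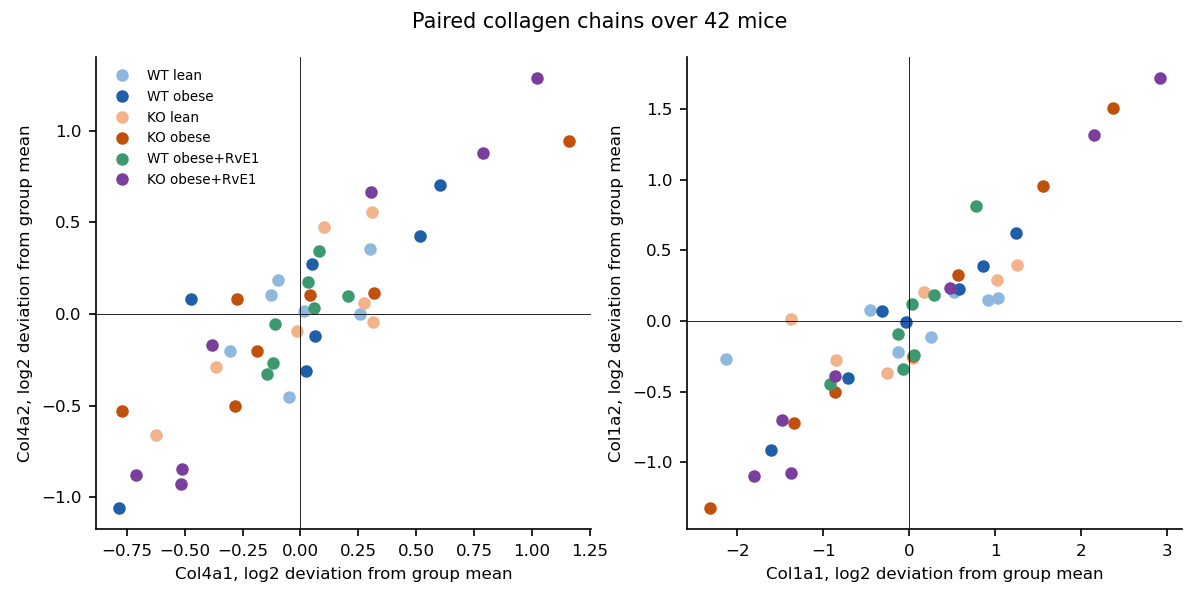
Deviation of each of 42 mice from its group mean, in log2 units, for Col4a1 (x) against Col4a2 (y) at left and Col1a1 (x) against Col1a2 (y) at right, coloured by group. Points follow a rising line in both panels (r = 0.88 and 0.91).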

How the data were processed

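Processed liver RNA-seq tables of 42 mice, 1 library each, were used. Libraries were made with a TruSeq stranded total RNA kit, although the labels name polyA RNA. The authors aligned read pairs to mm10 with Bowtie2, counted them with featureCounts and ran DESeq2 once per comparison. Strandedness of counting, annotation and versions: not given in the sources used here, and without strand, overlapping genes such as Col4a1 and Col4a2 cannot be told apart over their shared bases. The deposited signal values are reads per gene divided by a DESeq2 size factor of that table. The deposited log2 fold changes, p-values and adjusted p-values of the authors were not used.

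Whole reads were recovered within a tolerance of 0.1 reads for 100% of values, with 0 reads differing between tables. Groups came from the labels. Tests used limma 3.58.1 in R 4.3.3 (lmFit, eBayes with trend, two-sided) on log2(normalized count + 1), a mean of at least 5 over 14 libraries and BH adjustment over all genes. Of interactions, each fold change was formed within its own table. Passing means an adjusted p under 0.1. Alternatives were pseudocounts of 0.5 and 4, no filter, TMM scaling, equal totals, a length and GC correction (loess span 0.3), the identifier number as a random block, library quality weights, an adjusted p under 0.05, an added fold change above 1.5, edgeR 4.0.16 and DESeq2 1.42.0 on recovered reads (genes called by each are given beside the results), and leaving out each mouse. Replicates were numbered in accession order. The procedure was tested on simulated data.

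Named in full were up to 8 passing members per comparison by smallest adjusted p (Lum, the last of 9, was added), with Col1a1, Col1a2, Col3a1, Col4a1, Timp1, Spp1, Vwa1, Des and Pdgfrb in the diet and genotype comparisons, and of the other matrix lists the 2 higher and 2 lower with the smallest adjusted p. Members and lists were chosen with earlier results of these data known. Coordinates and exon lengths are from GENCODE M21 on GRCm38 (mm10), matched by symbol for 42 of 42 members.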

Additional observations from a re-analysis of the deposited data

Results flagged for a closer look

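In 107 sets of 7 mice (the named genes by group, on normalized counts), 13 values stood apart from the rest of their group by Dixon's test. Chance meets this rule in about 1 of 20 sets when values are independent and normally spread. Several of the values came from the same mouse, and the counts were not put on a log scale, so that rate is only a rough guide. In KO obese mice replicate 1 stood apart with 1409 for Col4a1, 344 for Pdgfrb and 35.4 for Timp1. In KO obese+RvE1 mice replicate 7 had 20.3 for Timp1 and replicate 3 had 84.5 for Sulf1. In WT obese mice replicate 5 had 157 for Des and 96.4 for Sulf1, replicate 1 had 19749 for Col18a1 and replicate 7 had 9.02 for Timp1. In WT obese+RvE1 mice replicate 2 had 268 for Col1a2. In KO lean mice replicate 7 had 314 for Des. In WT lean mice replicate 7 had 196 for Col5a1 and replicate 2 had 416 for Lamc1. All 13 were the highest value of their group.

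Vwa1 was flagged because its diet effect differed between genotypes in the interaction test, with a difference of -1.65 in log2 FC (SE 0.30, adjusted p = 0.0803 in limma).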

How the results depend on the processing

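Counts of passing members held within 1.5 times the main count under the other settings except as follows. With library quality weights 4 passed for WT diet, 10 for KO diet and 3 for the diet interaction. Over all genes the weights called 1605 of 14012, 5737 of 14213 and 2563 of 13924. Under the identifier number as a random block 1 passed for KO diet, 0 between lean genotypes and 0 for the diet interaction, and the call of Vwa1 between lean genotypes was lost (adjusted p = 0.111). EdgeR and DESeq2 each gave 8 for KO diet, and DESeq2 gave 0 for the diet interaction. Over all 14213 genes of the KO diet comparison edgeR called 3574. The length and GC correction gave 3 between lean genotypes, where 1593 of all 13031 genes passed, and 0 for the diet interaction. The interaction was also 0 with a pseudocount of 4, with equal totals and at an adjusted p under 0.05. Between lean genotypes 1 passed at an adjusted p under 0.05 and 4 with a fold change above 1.5. Leaving out 1 mouse gave 2 to 3 for WT diet, 1 to 8 for KO diet, 1 to 12 between lean genotypes, 0 to 3 for the diet interaction, 0 to 1 for RvE1 in WT mice (Lama3, without WT obese replicate 7) and 0 in the other 3 tests. Calls over all genes in the fits without 1 mouse are not given here. Equal totals moved the median of all genes by 0.14 in the KO diet and -0.12 in the lean genotype comparison. No paired analysis was possible because the identifier numbers, whose meaning is not given, lie within 1 group each except 1 number, and replicate numbers were given in accession order. Over all genes the random block gave 279 calls for WT diet (878 without it) and 1057 for KO diet (3422), and DESeq2 gave 1367 and 3962. The cause of these changes was not tested.

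No passing gene turned its direction. Of the other estimates, Col1a1 in WT diet became 0.02 with the length and GC correction, 0.06 with the block and 0.03 to 0.21 without 1 of 5 mice (0.03, 0.11, 0.09, 0.21 and 0.06), within -0.41 to 0.21 over all 14. Col3a1 in WT diet became 0.04 with equal totals, 0.03 with the length and GC correction, 0.07 with edgeR, 0.08 with DESeq2 and 0.02 to 0.09 without 1 of 6 mice (0.02, 0.09, 0.04, 0.07, 0.06 and 0.07), the lowest being -0.18. In the KO diet comparison Col4a1 became -0.05 without 1 mouse (highest 0.27), and Pdgfrb -0.03 with the length and GC correction and with weights and -0.10 to -0.02 without 1 of 3 mice (-0.02, -0.04 and -0.10). Between lean genotypes Col3a1 became -0.01 with equal totals, -0.14 with weights and -0.03 without 1 mouse (highest 0.23), and Col4a1 -0.11 with equal totals and -0.04 to -0.01 without 1 of 7 mice. Between obese genotypes Pdgfrb became -0.09 (highest 0.16) and Des 0.05 and 0.01 without 1 mouse (lowest -0.15).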

Other observations

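The spread between mice of a group, as the SD of log2(normalized count + 1), was larger in KO obese+RvE1 than in KO obese mice for 36 of 42 matrix genes (median SD 0.69 and 0.51), and for 66.6% of all 14207 genes tested. It was larger in WT obese+RvE1 than in WT obese mice for 8 of 40 (median SD 0.30 and 0.45), and for 31.5% of 13085 genes. Of the WT diet groups the obese one had the larger SD for 32 of 40 matrix genes (0.45 and 0.30) and 55.7% of all genes, and of the KO diet groups the obese one for 27 of 42 (0.50 and 0.40) and 40.4%. The differences in spread were not tested.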
